A study of Mus musculus with 8 samples.

Results

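The liver X receptors (LXRs) *Nr1h3* (LXRα) and *Nr1h2* (LXRβ) and 7 genes of sterol export, esterification and receptor turnover were examined in livers with and without hepatocyte *Rbfox2*. These 9 genes were taken by symbol from the 46078 gene identifiers of the deposited count table, and all 9 were expressed highly enough to be tested, among 13856 genes tested. The comparison was between 4 wild-type livers (*Alb_cre*-negative mice with both *Rbfox2* alleles flanked by loxP sites) and 4 *Rbfox2* knockout livers (*Alb_cre*-positive mice with the same floxed alleles), so the floxed alleles were common to both genotypes. All mice were fed the control (chow) diet and were fasted for 16 h before harvest. The labels give 12 weeks on the diet, whereas the study's methods give 16 to 22 weeks from 8 weeks of age, in males unless stated otherwise. According to the study, the albumin-driven Cre deletes *Rbfox2* selectively in hepatocytes. RNA came from whole liver, so *Rbfox2* mRNA of other liver cells may remain in the counts, which was not tested. The question addressed here is whether loss of the splicing factor RBFOX2 is accompanied by a different mRNA level of the LXR and sterol efflux genes. The study links RBFOX2 to hepatic cholesterol handling, with cholesterol changes found mainly under a high-fructose diet. By qPCR it reports higher expression of *Abca1*, *Abcg8*, *Nr1h2* and *Nr1h3* with RBFOX2 deficiency, while ABCA1 protein did not differ significantly. From these it proposes a compensatory rise in cholesterol efflux. Its RNA-seq of mice on the high-fructose diet found changes in the LXR pathway between the genotypes. These livers were from control-diet mice, so they do not cover that condition. In bulk tissue, fewer cells of a type and less RNA per cell cannot be told apart.

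LXRs are nuclear receptors that are activated by oxysterols, the oxidized derivatives of cholesterol, and that bind DNA as heterodimers with retinoid X receptors. When cellular cholesterol is high they induce transporters that move it out of the cell. ABCA1 and ABCG1 load cholesterol on to apolipoprotein A-I and high-density lipoprotein (HDL), and the ABCG5–ABCG8 heterodimer secretes sterols into bile. Their target MYLIP (IDOL) ubiquitinates the low-density lipoprotein receptor. LCAT esterifies cholesterol on HDL in plasma, and SOAT2 (ACAT2) esterifies it inside hepatocytes.

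A pair of promoter stretches shows how *Abcg5* and *Abcg8* are arranged and where *Abca1* holds a loose match to an LXR response element. RefSeq promoter windows on GRCm38.p6 were found for 7 of the 9 genes, the others being *Abcg1* and *Soat2*. The response element is a direct repeat of the half-site with a spacer of 4 bases (DR4), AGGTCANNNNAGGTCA. *Abcg5* and *Abcg8* start back to back on opposite strands of chromosome 17, and the 109 bases between their RefSeq starts are printed on the plus strand, which is the strand of *Abcg8*, at chr17:84683012-84683120. A second RefSeq start of *Abcg8* lies within *Abcg5*, at 84676302, so the annotated genes overlap. Capitals mark a match to the letters TATAAA on the strand of *Abcg5*, which reads TTTATA on the printed strand. The match lies 31 to 26 bases before the *Abcg8* start, and its nearest base is 79 bases before the *Abcg5* start. Whether it acts as a TATA box for either gene was not tested.
Abcg5-Abcg8: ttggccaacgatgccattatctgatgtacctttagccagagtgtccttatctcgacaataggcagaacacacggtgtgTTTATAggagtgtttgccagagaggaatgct
*Abca1* is shown because its window holds a match to DR4. The 120 bases before its start are printed on the minus strand, which is the strand of the gene, at chr4:53159896-53160015. Capitals mark the match, 67 to 52 bases before the start, which reads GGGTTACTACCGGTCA on the opposite strand and has 3 mismatches to the 12 fixed letters of DR4.
Abca1: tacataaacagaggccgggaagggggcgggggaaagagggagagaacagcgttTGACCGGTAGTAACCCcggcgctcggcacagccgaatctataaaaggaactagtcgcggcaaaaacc
On both strands and allowing up to 3 mismatches, DR4 was found in 21.9% of all 32851 windows, and without mismatches in 0.0152%. Among the 7 genes, *Abca1* and *Lcat* held 1 such match each and the others none. TATAAA was found in 13.6% of all windows, and no motif counted here overlapped another in the printed stretches. A match of letters is a description of the sequence and not a measured binding site.

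Before the sterol genes, the targeted gene was checked in each library. *Rbfox2* was at 17.1, 10.4, 11.4 and 18.3 CPM (counts per 1000000, with library sizes scaled by TMM factors) in wild-type replicates 1 to 4. In knockout replicates 1 to 4 it was at 4.61, 6.09, 2.24 and 3.19 CPM. Every knockout liver lay below every wild-type liver (log2 fold change −1.82, limma-voom SE 0.32). By edgeR, the main test below, *Rbfox2* had an unadjusted *P* of 0.000221 and a Benjamini–Hochberg adjusted *P* of 0.504. The main test thus did not call even the targeted gene after adjustment, nor did limma-voom (adjusted *P* = 0.570). DESeq2 called it (adjusted *P* = 0.000199). Total counts ranged from 37482458 to 56177588. The 3 libraries wild-type 1, wild-type 4 and knockout 2 lay apart from the other 5 on the principal axis of the tested genes other than the 9 described here, at 0.500, 0.459 and 0.302 (unitless) where the others ranged from −0.471 to −0.0334. This axis held 54.1% of the variance between livers. Knockout replicates 3 and 4 had TMM scaling factors of 0.724 and 0.776, against 1.02 to 1.14 in the others, and their major urinary protein (*Mup*) genes took 43.6% and 37.5% of all counts, against 21.4% to 37.1%. Fold changes of the 9 genes that rest on these libraries are given without them.

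No LXR or sterol efflux gene passed the test for a difference between genotypes after adjustment over all genes. By edgeR's quasi-likelihood test, 0 of the 9 genes had a Benjamini–Hochberg adjusted *P* of at most 0.05, where 0 of all 13856 genes did (0%). At an unadjusted *P* under 0.05, 1 of the 9, *Abcg8*, was lower in knockout livers, where 1.83% of all genes tested were lower and 7.95% higher. DESeq2 called 0 of the 9 genes and 10 genes in all, and limma-voom called 0. In 0 of the 9 genes did the CPM values of the genotypes not overlap, where this was so in 2.28% of all genes tested. The mean was lower in knockout livers for 7 genes and higher for 2, and the median log2 fold change of the 9 was −0.16, beside −0.015 over all genes tested. With library size alone in place of TMM factors, an alternative chosen after seeing the data, the median of all genes moved to −0.23.

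**Figure D1:**
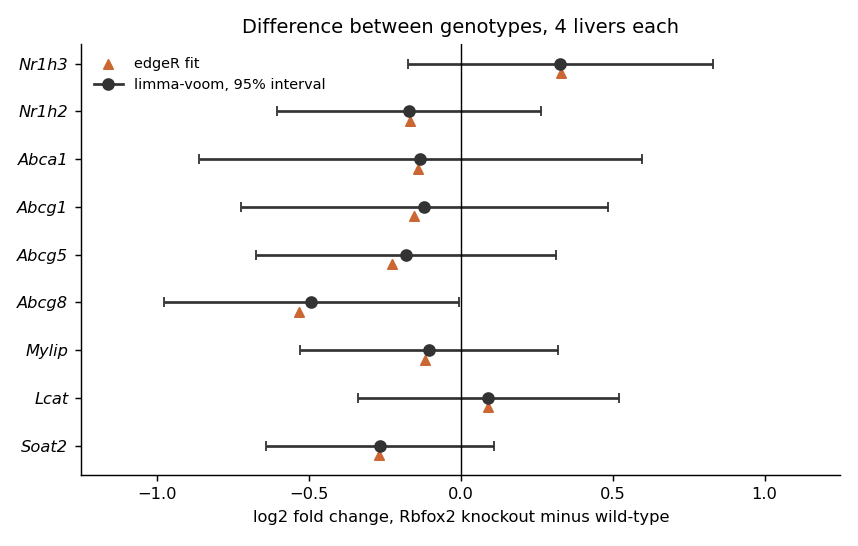
Log2 fold change of each gene between 4 knockout and 4 wild-type livers (x axis). Circles and bars are the limma-voom estimate with its 95% interval and triangles the edgeR estimate; the interval spans 0 for each gene except *Abcg8*, whose interval ends at −0.0062 before any adjustment over genes.

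Per kilobase of exon, the most abundant of these mRNAs was *Lcat*, at 218 ± 36.3 CPM per kb (SD, n = 4) in wild-type livers. It was followed by *Nr1h3* at 22.1 ± 4.82, *Abcg5* at 14.4 ± 4.36, *Abcg8* at 13.8 ± 4.02 and *Soat2* at 8.25 ± 1.18 CPM per kb. Below these were *Abca1* at 6.07 ± 2.35, *Nr1h2* at 5.40 ± 0.711, *Mylip* at 1.66 ± 0.225 and *Abcg1* at 0.230 ± 0.0623 CPM per kb. Compared within each liver, *Lcat* exceeded *Nr1h3* by 9.14 times (geometric mean), *Nr1h3* exceeded *Abcg5* by 1.86 times, *Nr1h2* exceeded *Mylip* by 3.19 times and *Mylip* exceeded *Abcg1* by 7.42 times, each in 8 of 8 livers. The neighbours *Abcg5* and *Abcg8* (higher in 6 of 8 livers), *Soat2* and *Abca1* (7 of 8) and *Abca1* and *Nr1h2* (5 of 8) did not keep 1 order in every liver. Divided by the longest coding transcript instead of all exons, *Nr1h2* stood at 9.05, *Soat2* at 8.26 and *Abca1* at 6.13 CPM per kb. *Nr1h2* thus moved above both *Abca1* and *Soat2*.

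The receptors came first. *Nr1h3* (ENSMUSG00000002108, chromosome 2, 91184061 to 91202834, minus strand) encodes the LXR that is abundant in liver. It was at 47.3, 72.2, 57.1 and 45.9 CPM in wild-type replicates 1 to 4, and at 65.4, 49.0, 77.3 and 88.2 CPM in knockout replicates 1 to 4. The groups overlapped, because knockout replicate 2 lay among the low wild-type livers, although knockout replicates 3 and 4 exceeded every wild-type liver. The log2 fold change was 0.33 (limma-voom 95% interval −0.18 to 0.83, edgeR adjusted *P* = 0.572). Without knockout replicates 3 and 4 it was 0.010, and with library size alone it was 0.056. *Nr1h3* shares 34 exon bases with *Gm13783* on the same strand, where reads cannot be assigned.

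*Nr1h2* (ENSMUSG00000060601, chromosome 7, 44549616 to 44553951, minus strand) encodes the ubiquitous LXR. It was at 19.4, 15.3, 17.1 and 20.7 CPM in wild-type livers and at 16.4, 21.1, 13.8 and 13.1 CPM in knockout livers. Here too the groups overlapped, with knockout replicate 2 the highest of all and knockout replicates 3 and 4 the lowest. The log2 fold change was −0.17 (limma-voom 95% interval −0.60 to 0.26, edgeR adjusted *P* = 0.710).

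Across the 8 livers the receptors ran in opposite order. The log2 CPM values of *Nr1h3* and *Nr1h2* had a Pearson *r* of −0.977 (exact permutation *P* = 9.92e-05, 0.00357 after Benjamini–Hochberg adjustment over all 36 pairs of the 9 genes) and a Spearman rho of −0.929 (exact permutation *P* = 0.00223). Without the 2 livers farthest from the median of *Nr1h3*, *r* was −0.958, and with each genotype centred on its own mean it was −0.98. Without knockout replicates 3 and 4, which had low scaling factors, *r* was −0.951 over 6 livers (exact permutation *P* = 0.00833). Wild-type 1, wild-type 4 and knockout 2, the livers set apart on the principal axis, were the 3 lowest for *Nr1h3* and the 3 highest for *Nr1h2*, an ordering shared with 17.4% and 19.2% of all genes tested, and the other 5 livers are too few for a correlation of their own. Each receptor followed that axis itself, with a Pearson *r* of −0.979 for *Nr1h3* and 0.955 for *Nr1h2*. The adjusted exact permutation *P* values, over the 9 genes, were 0.000446 and 0.00368. A relation of the receptors apart from this axis was not tested. After each library was corrected for gene length and GC content, a calculation added after seeing the data, *r* was −0.532 (exact permutation *P* = 0.173, adjusted *P* = 0.389). In the corrected values *Nr1h2* spanned only 3.98 to 4.23 log2 units over the 8 livers, while *Nr1h3* still spanned 5.41 to 6.56. The log2 ratio of *Nr1h3* to *Nr1h2* counts averaged 1.61 ± 0.492 (SD, n = 4) in wild-type livers and 2.11 ± 0.676 (SD, n = 4) in knockout livers. The ratio ranged from 1.15 to 2.24 in wild-type livers and from 1.21 to 2.75 in knockout livers, so the groups overlapped (two-sided exact permutation *P* = 0.286). Without the 3 livers set apart, the difference was 0.42 against 0.50 with all livers.

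**Figure D2:**
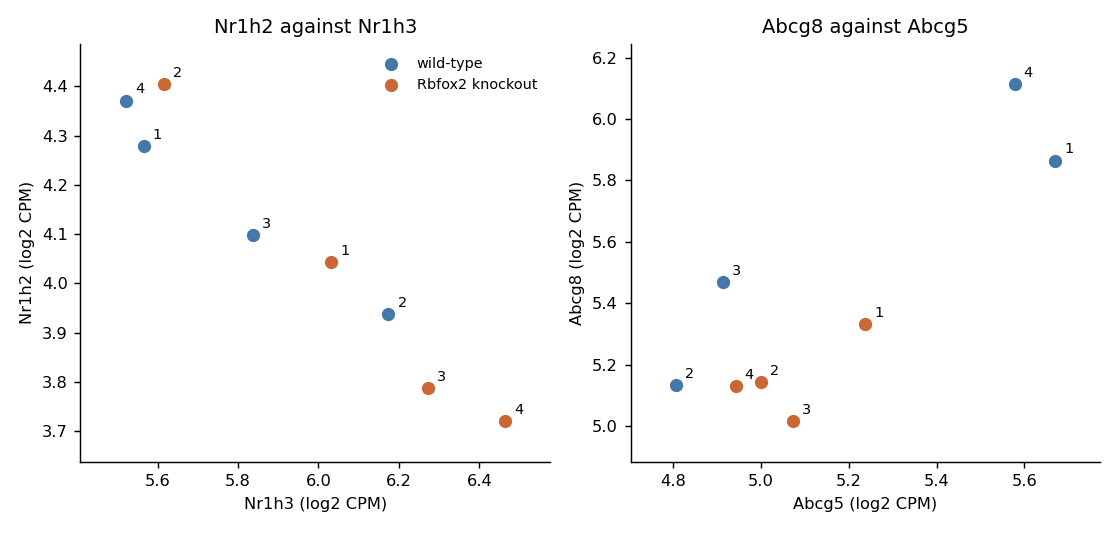
Log2 CPM of *Nr1h2* against *Nr1h3* (left) and of *Abcg8* against *Abcg5* (right), 1 point per liver, numbered by replicate and coloured by genotype. The receptors fall on a descending line over both genotypes, and wild-type replicates 1 and 4 stand alone at the top right of the *Abcg5*–*Abcg8* plot.

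Among the transporters, *Abca1* (ENSMUSG00000015243, chromosome 4, 53030787 to 53159895, minus strand) varied more between livers than between genotypes. It was at 84.9, 37.3, 47.1 and 82.4 CPM in wild-type livers and at 54.6, 88.5, 40.5 and 44.5 CPM in knockout livers. Wild-type 1, wild-type 4 and knockout 2 lay between 82.4 and 88.5 CPM and the other 5 between 37.3 and 54.6 CPM, and the 3 high livers are the livers set apart on the principal axis. The log2 fold change was −0.14 (limma-voom 95% interval −0.86 to 0.60, edgeR adjusted *P* = 0.854), and without those 3 livers it was 0.10. After the length and GC content corrections the same 3 livers still had the 3 highest *Abca1* values, from 6.14 to 6.30 log2 units against 5.42 to 5.77 in the others.

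*Abcg1* (ENSMUSG00000024030, chromosome 17, 31057675 to 31117988, plus strand), best known from macrophages, was low, with 39 to 110 counts per liver. It was at 1.78, 1.59, 2.23 and 1.13 CPM in wild-type livers and at 1.80, 1.72, 1.28 and 1.21 CPM in knockout livers. These ranges overlapped throughout (log2 fold change −0.16, limma-voom 95% interval −0.72 to 0.48, edgeR adjusted *P* = 0.803). Over the 8 livers *Abcg1* followed *Mylip* (Pearson *r* = 0.885, exact permutation *P* = 0.00771, adjusted *P* = 0.0463 over 36 pairs, Spearman rho 0.786, exact permutation *P* = 0.0279), with *r* = 0.738 without the 2 livers farthest from the median of *Abcg1*. Without knockout replicates 3 and 4, *r* was 0.818 over 6 livers (exact permutation *P* = 0.0889). After the length and GC content corrections 0 of the 36 pairs had an adjusted *P* of at most 0.05 by the exact permutation test, against 7 before, of which 5 included *Abca1* or *Lcat*. Markers of Kupffer cells and macrophages were measured beside these transporters. Their summed level ranged from 78.6 to 136 CPM in wild-type livers and from 44.7 to 88.0 CPM in knockout livers. Of 9 markers, 3 (*Clec4f*, *Csf1r* and *Cd68*, named after their values were seen) were lower at an unadjusted *P* under 0.05 by edgeR (1.83% of all genes tested) and 0 passed the adjusted threshold. Of the 9 markers, 7 had a negative log2 fold change by edgeR (51.6% of all genes tested), with a list median of −0.28. *Adgre1* was among these at −0.098. The other 2 were *Marco* (0.48 by edgeR, −0.028 by limma-voom) and *Timd4* (0.077 by edgeR, −0.057 by limma-voom). The part of these cells in the *Abca1* and *Abcg1* values was not tested.

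*Abcg5* and *Abcg8*, whose products work only as a heterodimer, lie side by side on chromosome 17. *Abcg5* (ENSMUSG00000040505, 84658234 to 84683011, minus strand) was at 50.9, 27.9, 30.1 and 47.7 CPM in wild-type livers and at 37.7, 31.9, 33.6 and 30.7 CPM in knockout livers. *Abcg8* (ENSMUSG00000024254, 84676302 to 84700333, plus strand) was at 58.2, 35.1, 44.3 and 69.2 CPM in wild-type livers and at 40.3, 35.3, 32.3 and 35.0 CPM in knockout livers. For both genes, wild-type replicates 1 and 4 were the highest of all livers and the 4 knockout livers lay close together, while wild-type replicates 2 and 3 lay below the knockout range for *Abcg5* and wild-type replicate 2 within it for *Abcg8*.

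For *Abcg8* the log2 fold change was −0.53 (limma-voom 95% interval −0.98 to −0.0062), that is 0.691 times the wild-type level. It was the only one of the 9 with an unadjusted *P* under 0.05 (0.0325 by edgeR, adjusted *P* = 0.504), which held in 15 of 25 alternatives, and the two-sided exact permutation *P* was 0.0857. Wild-type replicate 4 moved this value most among single livers, to −0.36 without it (edgeR adjusted *P* = 0.899). Without wild-type 1, wild-type 4 and knockout 2 together it was −0.19 (edgeR adjusted *P* = 0.760). For *Abcg5* the log2 fold change was −0.23 (limma-voom 95% interval −0.67 to 0.31, edgeR adjusted *P* = 0.660), and without those 3 livers it was 0.19.

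The balance between the mRNAs of the transporter subunits can be read within a library, where it needs no scaling between libraries. Counts in this ratio were not divided by exon length (2712 bases for *Abcg5* and 3749 for *Abcg8*). The sign of the ratio thus does not say which mRNA was more abundant. Per length, *Abcg5* exceeded *Abcg8* by 1.16 times (geometric mean) and was higher in 6 of 8 livers. The log2 ratio of *Abcg5* to *Abcg8* counts was −0.20, −0.33, −0.56 and −0.54 in wild-type replicates 1 to 4. In knockout replicates 1 to 4 it was −0.096, −0.15, 0.057 and −0.19. Every knockout liver thus lay above every wild-type liver, but wild-type replicate 1 (−0.195) and knockout replicate 4 (−0.188) were nearly equal. The mean ratio was 0.311 log2 units higher in knockout livers (−0.404 ± 0.174 against −0.093 ± 0.107, SD, n = 4 each, two-sided exact permutation *P* = 0.0286, the smallest that 4 against 4 allow, unadjusted for the 2 ratios examined). With the length and GC content corrections the groups overlapped and the difference was 0.147 (exact permutation *P* = 0.343). The annotated exons of the genes share 82 bases on opposite strands, and the strand setting of the read counting is not given in the sources used here, so reads in that stretch cannot be assigned. *Abcg5* and *Abcg8* levels had a Pearson *r* of 0.843 over the 8 livers (exact permutation *P* = 0.017, adjusted *P* = 0.0765, Spearman rho 0.524, exact permutation *P* = 0.197). This relation rests on wild-type replicates 1 and 4, the livers farthest from the median, without which *r* was 0.0978.

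**Figure D3:**
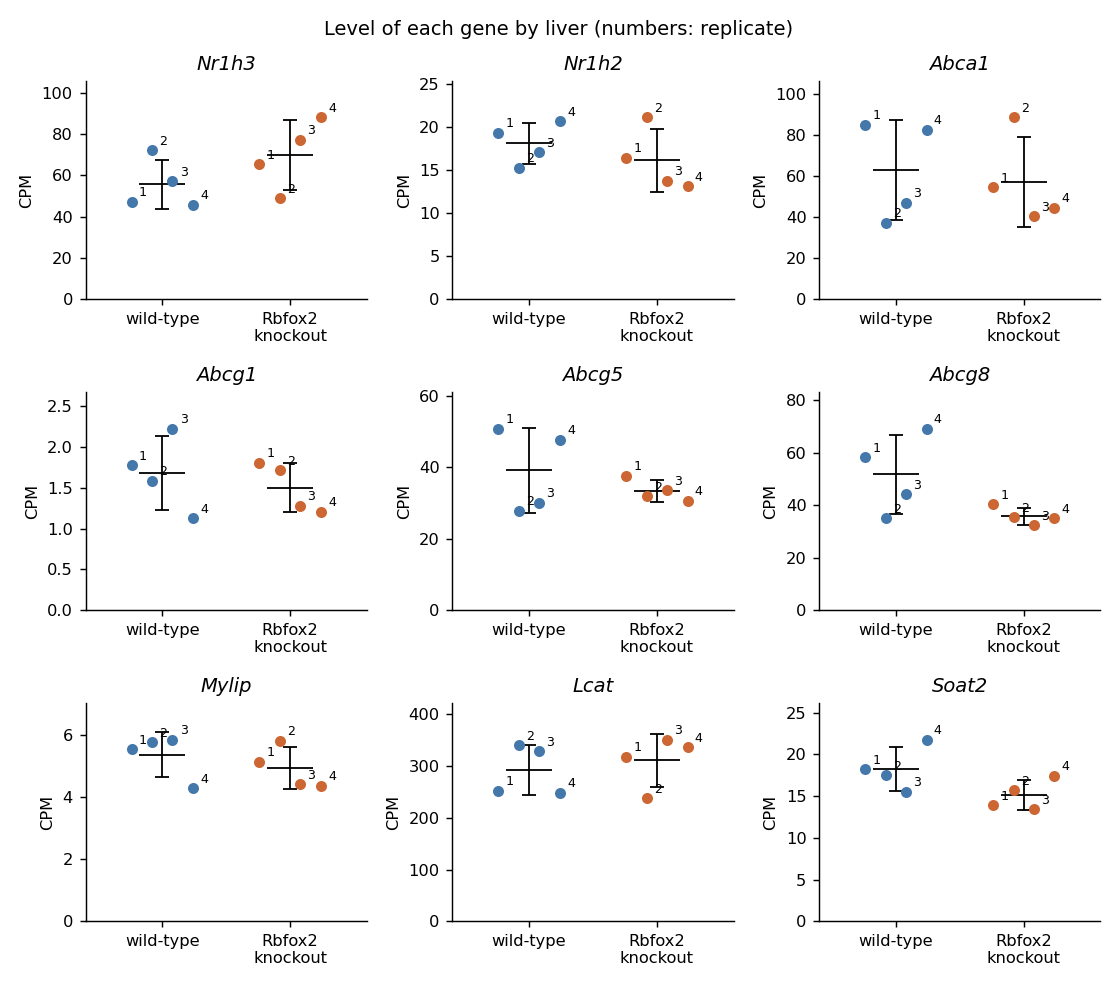
CPM of the 9 genes in each liver (y axis from 0, points numbered by replicate), with the mean and SD of each genotype as a bar and whiskers. The genotypes overlap in all 9 panels, and *Abca1* shows wild-type 1, wild-type 4 and knockout 2 above all other livers.

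*Mylip* (ENSMUSG00000038175, chromosome 13, 45389742 to 45412022, plus strand), the ubiquitin ligase gene, was at 5.54, 5.77, 5.84 and 4.28 CPM in wild-type livers and at 5.14, 5.81, 4.42 and 4.37 CPM in knockout livers. The lowest value of all was wild-type replicate 4, and the ranges overlapped almost fully (log2 fold change −0.12, limma-voom 95% interval −0.53 to 0.32, edgeR adjusted *P* = 0.783). *Lcat* (ENSMUSG00000035237, chromosome 8, 105939551 to 105943382, minus strand), whose product is secreted into plasma, was at 252, 340, 328 and 249 CPM in wild-type livers and at 318, 238, 351 and 336 CPM in knockout livers. The 3 livers that were highest for *Abca1* were the lowest for *Lcat*, at 238 to 252 CPM where the other 5 were at 318 to 351 CPM. The log2 fold change of *Lcat* was 0.088 (limma-voom 95% interval −0.34 to 0.52, edgeR adjusted *P* = 0.840), and it was −0.17 with library size alone. An antisense gene, *Gm16156*, overlaps the *Lcat* locus without sharing exon bases.

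*Soat2* (ENSMUSG00000023045, chromosome 15, 102150526 to 102163469, plus strand), the hepatocyte and intestinal cholesterol esterification enzyme, was at 18.2, 17.5, 15.5 and 21.8 CPM in wild-type livers. In knockout livers it was at 13.9, 15.7, 13.5 and 17.5 CPM. Replicates 1 and 3 of the knockout lay below every wild-type liver and the other knockout livers lay among them. The log2 fold change was −0.27 (limma-voom 95% interval −0.64 to 0.11, edgeR adjusted *P* = 0.557, two-sided exact permutation *P* = 0.114).

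Wild-type and knockout livers overlapped along the principal axis (exact permutation *P* = 0.2, two-sided), with knockout 3 and 4 lowest, at −0.392 and −0.471. A test of 4 livers against 4 cannot show that the axis is free of genotype. When the livers were ordered along this axis, 4 of the 9 genes placed wild-type 1, wild-type 4 and knockout 2 on 1 side of all others. *Abca1* and *Nr1h2* were higher in these 3 livers than in each of the other 5, as were 19.2% of all genes tested. *Nr1h3* and *Lcat* were lower in them than in each of the other 5, as were 17.4% of all genes tested. After the length and GC content corrections, 2 of the 9 genes, *Nr1h3* and *Abca1*, still did so, where 13.5% of all genes tested were higher and 14.2% lower in these 3 livers. Exon length was 10363 bases for *Abca1* and 1342 bases for *Lcat*, the longest and shortest of the 9, and the GC fraction was 0.477 for *Abca1* and 0.609 for *Nr1h2*, the lowest and highest. Correlations of the 9 genes with each other are not given for pairs that include *Abca1* or *Lcat*, for which the livers fall into separate sets. *Nr1h3* and *Nr1h2* place the same 3 livers on 1 side, so their correlation given above carries the same limit.

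**Figure D4:**
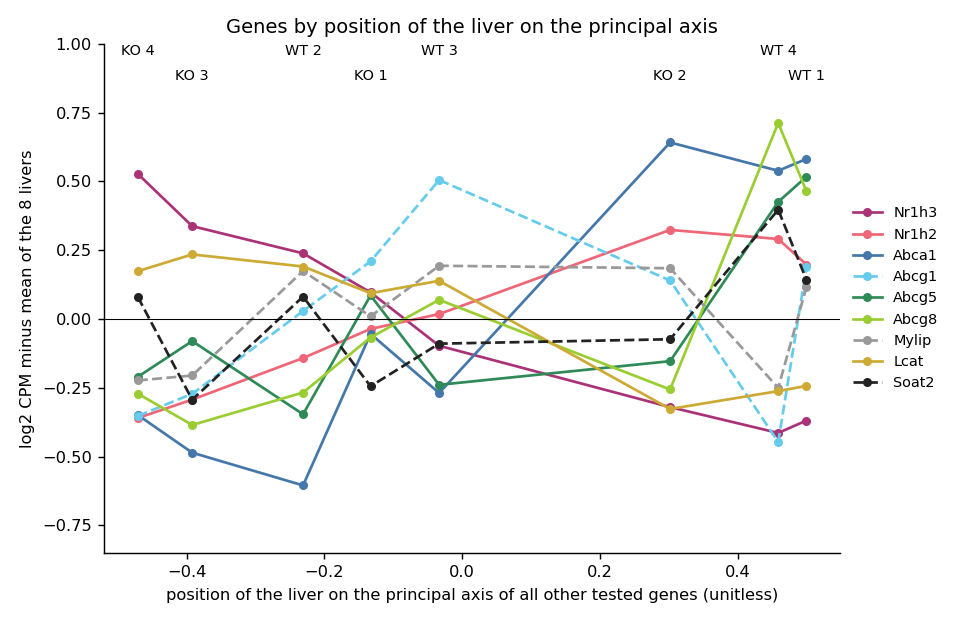
Log2 CPM of each gene, as the difference from its mean over the 8 livers (y axis), by the position of each liver on the principal axis of all other tested genes (x axis; WT, wild-type; KO, *Rbfox2* knockout; numbers are replicates). *Nr1h3* and *Lcat* descend from left to right, and *Abca1* and *Nr1h2* are highest in the 3 livers at the right.

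The genes whose levels over the 8 livers most resembled each of the 9 were found among all genes tested, and are given as a description without a test. For *Nr1h3* they were *Pgrmc1*, *Tfam* and *Lypla1* (Pearson *r* 0.998, 0.997 and 0.996) and for *Nr1h2* they were *Zc3h7b*, *Ube3b* and *Cep128* (0.994, 0.993 and 0.993). For *Abca1* they were *Myo6*, *Mpdz* and *Zfp142* (0.993, 0.991 and 0.99) and for *Lcat* they included *Apoh* and *Serpinc1* (0.988 and 0.982), over livers that fall into separate sets. For *Abcg5* they were *Tmem150a*, *Trafd1* and *Atp11a* (0.98, 0.97 and 0.969), whereas for its partner *Abcg8* they were *Ppp1r13l*, *Slc37a1* and *Fnip2* (0.992, 0.978 and 0.977). For *Abcg1* they were *Gm14373*, *Ddx27* and *Sema3d* (0.95, 0.936 and 0.931), for *Mylip*, *Jcad*, *Vav3* and *B3gnt3* (0.973, 0.957 and 0.953) and for *Soat2*, *Sept1*, *Meis3* and *Dock10* (0.953, 0.93 and 0.927).

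The surroundings of the receptors and transporters in the pathway were read from 6 lists, and 0 genes of any list had an adjusted *P* of at most 0.05 by edgeR. Of the 15 LXR partners and coregulators, which include the retinoid X receptors and the corepressors, all were tested, 14 had a negative log2 fold change (51.6% of all genes tested) and 0 an unadjusted *P* under 0.05 by edgeR. The median log2 fold change of this list was −0.18. Those with the smallest *P* were *Rxra*, the main hepatic partner of LXR (−0.32, limma-voom SE 0.26, edgeR adjusted *P* = 0.625), and the coactivator *Ncoa6* (−0.41, SE 0.36, edgeR adjusted *P* = 0.628).

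Of 17 other LXR target genes, all tested, 8 had a positive and 9 a negative log2 fold change, with a median of −0.067. At an unadjusted *P* under 0.05 by edgeR, 3 were higher in knockout livers (7.95% of all genes tested) and 0 lower (1.83%). *Apoc2*, the activator of lipoprotein lipase, was at 109, 195, 125 and 110 CPM in wild-type livers and at 284, 157, 292 and 378 CPM in knockout livers (log2 fold change 1.04, limma-voom SE 0.29, edgeR adjusted *P* = 0.504). Knockout replicate 2 was the only knockout liver within the wild-type range. With the gene length correction the log2 fold change of *Apoc2* was 0.59, and without knockout replicates 3 and 4 it was 0.68 (edgeR unadjusted *P* = 0.0806). *Apoc1*, from the same apolipoprotein cluster, had a log2 fold change of 0.96 (SE 0.39, edgeR adjusted *P* = 0.504), and *Lpl*, lipoprotein lipase itself, one of 0.70 (SE 0.31, edgeR adjusted *P* = 0.504). The unadjusted *P* stayed under 0.05 in 12 of 25 alternatives for *Apoc1*, which stood at 0.46 with the gene length correction, and in 13 of 25 for *Lpl*. By limma-voom *Lpl* stood at 0.61 (unadjusted *P* = 0.0773). *Srebf1*, the lipogenic regulator and a classic LXR target named after its values were seen, had an edgeR log2 fold change of −0.96. The unadjusted *P* was 0.0607 by edgeR, 0.0346 by DESeq2 and 0.138 by limma-voom (edgeR adjusted *P* = 0.511). The limma-voom estimate was −0.70 (SE 0.44). *Srebf1* was at 55.6 CPM in wild-type replicate 4, and at most at 19.8 CPM in the other wild-type livers.

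Oxysterol synthesis and removal, the supply of LXR ligands, held 7 tested genes of 10, with a median log2 fold change of −0.20 and 0 genes at an unadjusted *P* under 0.05 by edgeR. Among those of smallest *P* was *Cyp46a1*, a cholesterol 24-hydroxylase gene at 31 to 128 counts (−0.59, limma-voom SE 0.27, edgeR adjusted *P* = 0.511). Of 18 ABCA and ABCG relatives, 10 were tested (median −0.26). Of these, *Abca9* was at 2.17, 1.15, 1.79 and 1.40 CPM in wild-type livers and at 0.594, 0.859, 0.931 and 0.464 CPM in knockout livers. These ranges did not overlap, as in 2.28% of all genes tested, at only 15 to 86 counts per liver. *Abca9* had the smallest *P* of the 10 (log2 fold change −1.18, limma-voom SE 0.31, edgeR unadjusted *P* = 0.00395, adjusted *P* = 0.504). By edgeR, 1.83% of all genes tested were lower at an unadjusted *P* under 0.05. The unadjusted *P* of *Abca9* was under 0.05 in all 25 alternatives. *Abca6* was next by *P* (−0.39, SE 0.20, edgeR adjusted *P* = 0.521).

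Among genes of HDL and cholesterol uptake, 10 of 12 were tested (median 0.035). *Apom*, an apolipoprotein of HDL, had a log2 fold change of 0.49 (limma-voom SE 0.21, edgeR unadjusted *P* = 0.0408, adjusted *P* = 0.504). With the gene length correction it was 0.072 (edgeR unadjusted *P* = 0.649), and the unadjusted *P* was under 0.05 in 7 of 25 alternatives. *Pltp*, the phospholipid transfer protein gene and an LXR target, had a log2 fold change of −0.73 (edgeR adjusted *P* = 0.509). The limma-voom estimate for *Pltp* was −0.62 (SE 0.35, unadjusted *P* = 0.105). Among genes of cholesteryl ester and intracellular sterol transport, 14 of 15 were tested (median −0.21) and 0 had an unadjusted *P* under 0.05 by edgeR. *Npc2*, which carries cholesterol out of lysosomes, stood at 0.53 (SE 0.28, edgeR adjusted *P* = 0.523) and *Osbpl9*, an oxysterol-binding protein relative, at 0.27 (SE 0.20, edgeR adjusted *P* = 0.585).

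**Figure D5:**
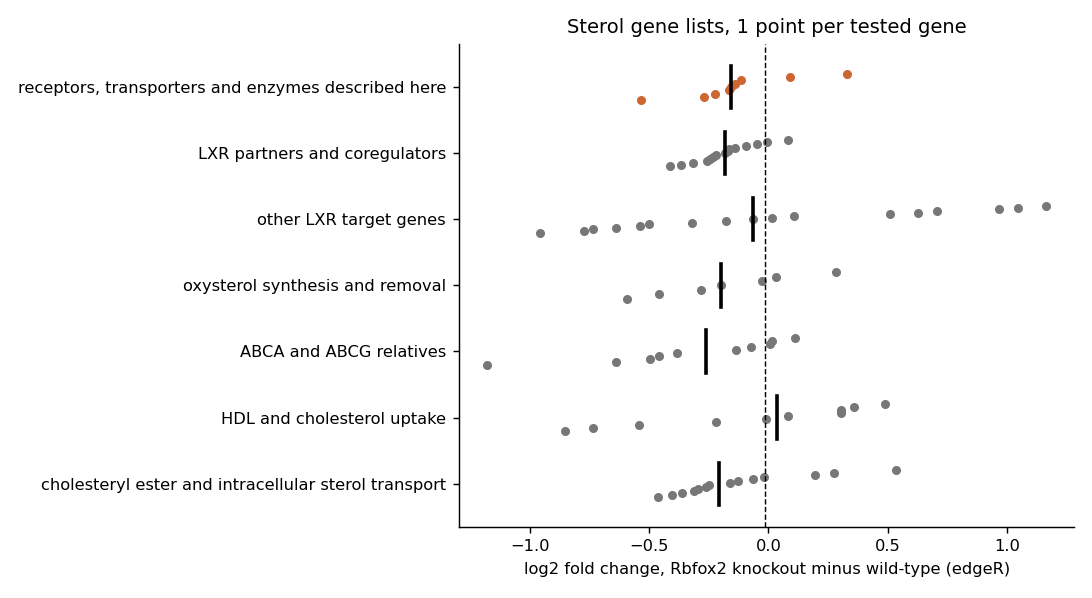
Log2 fold change of each tested gene (points) in the 9 genes described here and in the 6 pathway lists, with list medians as black bars and the median of all genes tested as a dashed line. The lists spread to both sides of 0, and 1 of the 15 coregulators lies above it.

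The other cell types of the liver were measured through marker lists, none of whose genes passed the adjusted threshold by edgeR. Hepatocyte markers summed to between 50100 and 74800 CPM in wild-type livers and between 55900 and 79000 CPM in knockout livers. Endothelial markers summed to 62.2 to 80.6 against 51.1 to 69.5 CPM, stellate cell markers to 58.9 to 119 against 75.1 to 119 CPM, and cholangiocyte markers to 14.5 to 25.5 against 16.3 to 60.6 CPM. Only 1 of 5 lymphocyte markers could be tested (summed level 2.14 to 3.42 against 1.47 to 3.08 CPM). Blood markers summed to 285 to 570 CPM in wild-type livers and to 464 to 1300 CPM in knockout livers, with 3 of 4 (the globin genes) higher at an unadjusted *P* under 0.05 (7.95% of all genes tested). The unadjusted *P* of *Hba-a1*, *Hbb-bs* and *Hbb-bt* stayed under 0.05 in 17, 23 and 21 of 25 alternatives. Of the enterocyte markers only *Fabp2* was tested (50.1 to 152 against 94.1 to 232 CPM), while *Sis* and *Alpi* had 0 counts in every liver. The part of these cells in the sterol gene levels was not tested.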

How the data were processed

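Livers of 4 wild-type and 4 *Rbfox2* knockout mice were profiled by poly(A) RNA-seq. Per the labels and the study's methods, the authors aligned reads to GRCm38 (mm10) with TopHat2 2.0.11 as first-strand libraries and deposited whole-number counts per gene from featureCounts, without normalization. The submitters' processing notes also name CASAVA 1.8.4. The featureCounts version and its strand and multi-mapping settings are not given in the sources used here.

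Symbols, positions and exon lengths came from GENCODE M21 (GRCm38), which matched 45229 of 46078 identifiers. Total counts ranged from 37482458 to 56177588, at which 3 counts correspond to 0.053 to 0.080 CPM (counting error only). No library was a copy of another of its genotype (counts of such pairs differed with a chi-square of at least 107 per degree of freedom).

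In R 4.3.3, edgeR 4.0.16 (filterByExpr with a minimum count of 10 and total of 15, TMM, glmQLFit and glmQLFTest, genotype as the only term) tested 13856 genes with Benjamini–Hochberg adjustment over all of them, at an adjusted *P* of at most 0.05. Standard errors and 95% intervals came from limma-voom (limma 3.58.1). Log2 CPM used a prior count of 2. Permutation tests were exact and two-sided, with 40320 orderings for correlations (Python 3.11.15, numpy 2.4.6, scipy 1.17.1). The tests were tried on simulated data. Nothing in the labels says whether livers of a genotype came from separate litters or experiments, so *P* values measure only the spread between these livers, which may be partly technical. The 9 genes and all lists were chosen with earlier results of these data known. Named are these genes, *Rbfox2*, in each pathway list the genes past the threshold or otherwise the 2 of smallest *P*, the 3 genes most correlated with each of the 9, and genes said to be named after their values were seen, which include *Lpl*, *Srebf1*, the macrophage markers, the globin genes, *Fabp2*, *Sis*, *Alpi* and overlapping genes. A few genes that this rule would name are not reported here. Alternatives were DESeq2 1.42.0 and upper-quartile scaling, the DESeq2 and limma-voom tests, other filters, robust estimation, the replicate block, lowess corrections (span 0.3) for GC content and gene length, 1 surrogate variable (sva 3.50.0), leaving out 21 *Mup* genes and each liver in turn. Added after seeing the data were library size alone, leaving out the 3 livers apart on the principal axis or knockout replicates 3 and 4, the corrections for ratios and correlations, and the principal axis. Promoter windows (250 bases before and 50 from the start on) are from RefSeq.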

Additional observations from a re-analysis of the deposited data

How the results depend on the processing

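With edgeR, 0 genes passed under every alternative, and DESeq2 gave 10. None of the 9 genes passed under any alternative. Of 153 fold changes under alternatives other than single livers left out, 131 kept their direction and 22 reversed, and with each liver left out 67 of 72 kept it. *Abcg8* (−0.73 to −0.19) and *Soat2* (−0.49 to −0.17) were negative throughout. With 1 surrogate variable *Nr1h3* reversed to −0.025, *Nr1h2* to 0.080, *Abca1* to 0.44, *Abcg5* to 0.064 and *Lcat* to −0.16. With the gene length correction *Abca1* reversed to 0.042 and *Lcat* to −0.22. With both length and GC content corrections *Nr1h2* reversed to 0.044, *Abcg1* to 0.015 and *Lcat* to −0.078, and with the replicate block added to 0.042, 0.068 and −0.074. With library size alone *Lcat* reversed to −0.17. Without the 3 livers apart on the principal axis *Abca1* reversed to 0.10, *Abcg5* to 0.19 and *Lcat* to −0.033. Without knockout replicates 3 and 4 *Nr1h2* reversed to 0.038, *Abca1* to 0.18, *Abcg1* to 0.039, *Mylip* to 0.0057 and *Lcat* to −0.10. With 1 liver left out, *Abca1* ranged from −0.43 to 0.018 (positive without wild-type 1, 0.018, or 4, 0.017), *Abcg1* from −0.30 to 0.015 (positive without wild-type 3) and *Lcat* from −0.0075 to 0.20 (negative without wild-type 1, −0.0045, or knockout 3, −0.0075). The difference in the *Abcg5* to *Abcg8* ratio ranged from 0.26 to 0.38 with 1 liver left out (exact permutation *P* = 0.0571 without any single knockout liver). It was 0.37 without the 3 livers apart (exact permutation *P* = 0.1, the smallest that 2 against 3 allow) and 0.15 with both corrections. The causes were not tested. Same-numbered livers are different animals, and their deviations correlated at 0.127, −0.613, 0.122 and −0.514 for numbers 1 to 4. The labels do not say whether the numbers mark a shared litter or batch, and these values cannot decide it. With the replicate block the ratio difference was 0.31 (sign-flip exact permutation *P* = 0.125, the smallest possible), no adjusted call changed, and genes at an unadjusted *P* under 0.05 fell from 1356 to 335. Among the genes described, *Abcg8* (log2 fold change −0.49, edgeR unadjusted *P* = 0.0757), *Apoc1* (0.0896), *Apom* (0.122), *Hbb-bt* (0.0514) and *Fabp2* (0.0569) then no longer had an unadjusted *P* under 0.05.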
